A study of Mus musculus with 36 samples.

Results

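The kinesin motor genes described here are the 38 genes, of 21968 in the deposited count table, whose mouse symbol is Kif followed by a number and at most one letter. All 38 are protein-coding in GENCODE M21. Fully grown germinal vesicle oocytes, which keep an intact nucleus until meiosis resumes, were sequenced one per library. The Drp1_KO label covers 18 oocytes from 4 mice (a to d), and the Drp1_WT label covers 18 oocytes from 5 mice (1 to 5), with 3 to 5 oocytes per mouse. Drp1, encoded by Dnm1l, is the GTPase that divides mitochondria. The sources used here do not give the deleted part of the gene, any Cre driver, or the strain and age of the mice. Totals ran from 3178509 to 7406895 counts per oocyte, and CPM, a gene's share of the counts on the usual scale, was taken over each oocyte's own total. The mouse was the replicate, as the mean of its oocytes, with n = 4 for Drp1_KO and n = 5 for Drp1_WT.

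Some libraries stood apart and are named before the results. Dnm1l ranged from 144 to 274 CPM in oocytes labelled Drp1_KO, against 116 to 322 CPM in those labelled Drp1_WT. The Drp1_WT range holds 5 libraries in tubes 11 to 15 (mice 3 and 4) at 116 to 156 CPM, and the other 13 at 234 to 322 CPM, so Dnm1l goes against the label in those 5. The counts cover the whole gene, so exons outside a deletion still count. All 12 oocyte markers were detected. Their summed level had a median of 23797 CPM in Drp1_KO oocytes and 28105 CPM in Drp1_WT oocytes, and was at least 16590 CPM in each Drp1_WT oocyte. Tube 10 of Drp1_KO mouse b had 3025 CPM, the lowest of the 36. The same tube held 559 CPM of 7 immune cell markers, against at most 11.7 CPM in the other Drp1_KO oocytes and at most 12.5 CPM in Drp1_WT oocytes. Most of the sum in tube 10 was Lyz2, at 440 CPM, followed by Cd68 at 67.8 CPM and Adgre1 at 34.5 CPM. In any Drp1_KO oocyte Laptm5 had at most 10.6 CPM, Csf1r 4.50, Ptprc 1.23 and Cd3e 0.801. The sum of 15 granulosa and cumulus markers was 187 CPM in tube 10, against at most 149 CPM in the other Drp1_KO oocytes and at most 158 CPM in Drp1_WT oocytes. Directions between labels follow the labels as given. Values include these libraries unless stated otherwise, and some results are also given without them.

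Kinesins are motor proteins that hydrolyse ATP to walk along microtubules or to take tubulin off their ends. Many carry vesicles, mitochondria or cilium components along microtubule tracks, while others build the division spindle, move chromosomes and form the midzone on which cytokinesis depends. A germinal vesicle oocyte makes little new RNA and draws on stored transcripts when it resumes meiosis, when it assembles a spindle without centrioles and extrudes a small polar body. The members were divided into 13 spindle and chromosome kinesins, 15 transport kinesins and 10 kinesins of cilia or of other functions.

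The motor domain of a kinesin holds a nucleotide-binding P-loop, in amino acids a glycine, any 4 residues, a glycine, a lysine and a serine or threonine. Searched in the longest annotated protein of each member, the motif occurred less than 260 residues before the next conserved motif of the motor (SSRS or AGSE) in 36 of the 38. The exceptions were Kif26a and Kif26b, each with 1 match of the motif that did not meet this distance rule. Kif26a is known to bind microtubules without hydrolysing ATP. The motif began in the first 25% of the protein in 32 of these 36. Outside it were Kif2a, Kif2b and Kif2c, kinesin-13 proteins whose motor lies inside the chain, and Kif14, which has a long stretch before its motor. The coding bases around the P-loop are shown for 8 of the 9 members highest per kb (Kif20a is not shown), since they are the part shared by proteins with otherwise different tasks. They are coding-strand bases of GENCODE M21 transcripts on GRCm38, exonic throughout, 5′ to 3′, with the 24 P-loop bases in capitals.
Kif17: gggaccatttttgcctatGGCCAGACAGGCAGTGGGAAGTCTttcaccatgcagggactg
Kif23: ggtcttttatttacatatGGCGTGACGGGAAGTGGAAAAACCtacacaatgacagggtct
Kif22: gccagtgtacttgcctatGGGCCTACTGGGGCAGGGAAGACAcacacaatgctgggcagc
Kif4: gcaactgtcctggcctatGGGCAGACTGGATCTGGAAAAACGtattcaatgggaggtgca
Kif2c: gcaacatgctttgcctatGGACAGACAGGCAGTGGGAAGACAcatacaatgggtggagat
Kif20b: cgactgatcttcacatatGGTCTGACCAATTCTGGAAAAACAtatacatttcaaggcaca
Kif18a: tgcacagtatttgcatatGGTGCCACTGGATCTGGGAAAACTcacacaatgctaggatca
Kif3a: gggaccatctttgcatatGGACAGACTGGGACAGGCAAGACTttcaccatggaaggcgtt

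The Kif17 stretch lies at chr4:138268966-138269025 on the plus strand, wholly within exon 2 of 15. The Kif4 stretch, at chrX:100633847-100633906 on the plus strand, lies wholly within exon 3 of 30. The other 6 run across an exon junction, so their genomic spans include an intron. These spans are chr9:61937160-61937430 (minus strand) for Kif23, chr7:127034007-127034157 (minus) for Kif22, chr4:117167098-117167338 (minus) for Kif2c, chr19:34929768-34931559 (plus) for Kif20b, chr2:109288160-109289731 (plus) for Kif18a and chr11:53570809-53578902 (plus) for Kif3a. Among the 8, the P-loop bases of Kif17 and Kif2c were the most alike, identical at 21 of 24. Those of Kif17 and Kif20b, and of Kif23 and Kif22, were identical at 12 of 24.

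The oocytes stored transcripts of most kinesins, and mainly of those that act on the spindle and chromosomes. At 1 CPM or more in both labels there were 28 of the 38 members, of which 18 reached 10 CPM and 8 reached 100 CPM. By role these were 12 of 13 spindle and chromosome kinesins, 12 of 15 transport kinesins and 4 of 10 others. Kif1c, a carrier in secretory traffic, passed 1 CPM in Drp1_KO mice alone, where it averaged 1.06 ± 0.240 CPM (SD, n = 4), while Drp1_WT mice averaged 0.784 ± 0.404 CPM (SD, n = 5). The remaining 9 stayed under 1 CPM in both. A count was present in all 36 oocytes for 26 members, and single oocytes held 27 to 34 members in Drp1_KO and 30 to 34 in Drp1_WT. Tube 10 of mouse b was at the low end of the Drp1_KO range, with 27.

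Summed over members, kinesins took 3268 ± 234 CPM in Drp1_KO mice (SD, n = 4) and 3529 ± 329 CPM in Drp1_WT mice (SD, n = 5), with single oocytes from 2138 to 4072 CPM. Most of this came from the spindle and chromosome group, at 2464 ± 206 CPM in Drp1_KO mice and 2678 ± 289 CPM in Drp1_WT mice. Transport kinesins summed to 746 ± 29.4 CPM in Drp1_KO mice and 792 ± 69.5 CPM in Drp1_WT mice. The other group summed to 57.2 ± 4.14 CPM in Drp1_KO mice and 58.3 ± 2.88 CPM in Drp1_WT mice. For each sum the difference between labels was smaller than the SD among Drp1_WT mice. It was larger than the SD among Drp1_KO mice for all members, for the spindle and chromosome group and for transport kinesins. Differences between these sums were not tested. CPM is a share of an oocyte's counts, so a change in the total RNA of an oocyte would not show in it.

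To set one gene against another, CPM was divided by the length of the gene's exons in kilobases. Whether transcripts of different genes were captured and amplified alike was not tested. A difference in level per kb between genes therefore need not be a difference in stored RNA. Read this way, the median level was 26.7 CPM per kb among spindle and chromosome kinesins, 0.810 among transport kinesins and 0.117 among the others. The store was concentrated in a few genes: of the summed CPM per kb of all members, the top 3 held 50.5%, the top 5 held 68.6% and the top 10 held 91.8%. Among the members at 1 CPM or more the median was 4.56 CPM per kb, close to the 4.42 CPM per kb of all 11523 genes at that level.

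**Figure D1:**
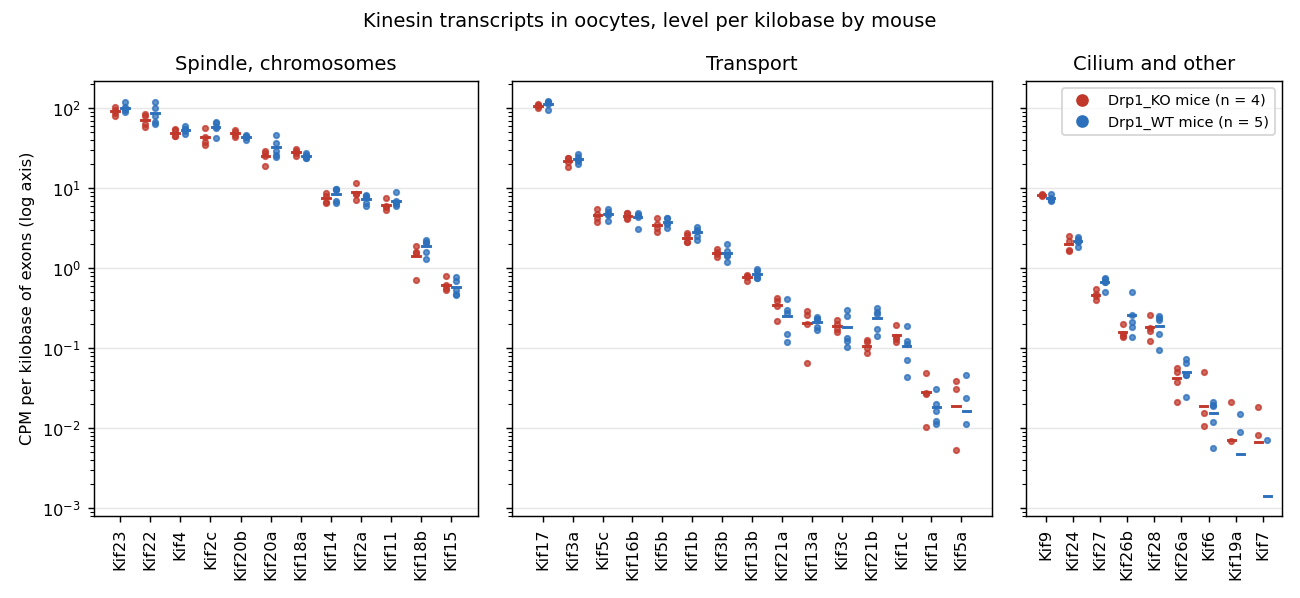
Level per kilobase of exons, on a log axis, of each kinesin in each Drp1_KO mouse (red, n = 4) and Drp1_WT mouse (blue, n = 5), by role, with bars at the label means. Mice at 0 are not drawn, nor are Kif12 and Kif2b, which had no counts. Kif17 at 112 CPM per kb and Kif23 at 97.1 CPM per kb lead the transport and the spindle groups, and the mice of the labels overlap for each kinesin drawn except Kif21b.

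By mean level per kb over the 9 mice, the order began with Kif17 (112.1), Kif23 (97.1), Kif22 (80.1), Kif4 (52.2), Kif2c (51.8), Kif20b (46.1), Kif20a (29.6), Kif18a (26.7), Kif3a (22.7) and Kif14 (8.09). Kif17 had rank 568 on this scale, above 97.4% of all genes of the table matched to GENCODE M21. That base includes genes with no counts. Kif17 exceeded Kif23, Kif23 exceeded Kif22 and Kif22 exceeded Kif4 in 9 of 9 mice each, although the ranges over mice of each pair overlap. Kif4 and Kif2c did not separate, with Kif4 higher in 4 of 9 mice. A step lay between Kif3a, whose lowest mouse had 18.7 CPM per kb, and Kif14, whose highest had 9.76. The length used matters for the first places. With the longest protein-coding transcript in place of all exons, the order became Kif23, Kif22, Kif17, Kif2c and Kif18a, and 9 of the 10 leading genes were shared.

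Among the spindle and chromosome kinesins, Kif23 was the most abundant. It forms centralspindlin with Racgap1 at the spindle midzone and is needed for cytokinesis. Its level was 831, 693, 746 and 635 CPM in Drp1_KO mice a to d, against 951, 744, 784, 813 and 708 CPM in Drp1_WT mice 1 to 5. Mouse d was the lowest and mouse 1 the highest, and the labels overlap.

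Kif22, a chromokinesin that pushes chromosome arms away from the poles, varied more from mouse to mouse. It stood at 413, 310, 391 and 291 CPM in Drp1_KO mice, against 586, 331, 398, 503 and 313 CPM in Drp1_WT mice. The highest Drp1_WT values came from mice 1 and 4, and the other 3 lay within the Drp1_KO range. Kif4, the second chromokinesin, which binds condensing chromosomes and the midzone, had 302, 247, 298 and 251 CPM in Drp1_KO mice, against 333, 285, 305, 308 and 263 CPM in Drp1_WT mice. Its exons share 832 bases, 15.1% of their length, with Pdzd11 on the opposite strand (210 CPM in Drp1_KO mice and 226 CPM in Drp1_WT mice), and reads of the shared part cannot be told apart because the kits keep no strand.

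Kif2c, a kinesin-13 that takes tubulin off microtubule ends and corrects faulty kinetochore attachments, stood at 193, 151, 246 and 167 CPM in Drp1_KO mice. In Drp1_WT mice it had 288, 186, 257, 295 and 251 CPM. The 2 highest Drp1_KO mice, a and c, reached into the Drp1_WT range, whose lowest member was mouse 2.

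Kif20b, an M-phase phosphoprotein of the kinesin-6 family that acts in late cytokinesis, had 348, 379, 306 and 323 CPM in Drp1_KO mice, against 309, 310, 326, 280 and 307 CPM in Drp1_WT mice. Its relative Kif20a, which brings the chromosomal passenger complex to the midzone, had 129, 111, 119 and 82.6 CPM in Drp1_KO mice and 202, 114, 128, 161 and 106 CPM in Drp1_WT mice. Both pairs of ranges overlap, and Kif20a was again highest in mouse 1 and lowest in mouse d. Of the exon bases of Kif20a, 29.3% are shared with Cdc23 on the opposite strand, a gene at 15.9 CPM in Drp1_KO mice and 18.7 CPM in Drp1_WT mice.

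Kif18a, a kinesin-8 that dampens the movement of chromosomes at metaphase, stood at 292, 270, 251 and 306 CPM in Drp1_KO mice, against 238, 244, 258, 232 and 270 CPM in Drp1_WT mice. The 2 highest Drp1_KO mice lay above every Drp1_WT mouse and the other 2 within their range. Kif14, which recruits citron kinase in cytokinesis, had 69.5, 83.7, 91.1 and 67.7 CPM in Drp1_KO mice, against 72.8, 101, 99.8, 101 and 67.8 CPM in Drp1_WT mice. Both labels held mice near 68 CPM, and the 3 highest mice carried the Drp1_WT label.

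The remaining spindle and chromosome kinesins were lower. Kif2a, a kinesin-13 of the spindle poles, averaged 57.1 ± 12.2 CPM in Drp1_KO mice and 47.02 ± 6.48 CPM in Drp1_WT mice (SD, n = 4 and 5, as in all pairs below). Kif11, the plus-end motor that pushes spindle poles apart, averaged 46.2 ± 7.21 CPM in Drp1_KO mice and 52.2 ± 9.21 CPM in Drp1_WT mice. Per kb, Kif2a stood at 8.05 CPM, next after Kif14 in the order, and Kif11 at 6.64 CPM. Kif18b, which works with the Kif2c protein at microtubule ends in human cells, averaged 5.13 ± 1.82 CPM in Drp1_KO mice and 6.69 ± 1.46 CPM in Drp1_WT mice. Kif15, which can stand in for Kif11 in dividing cells, averaged 6.88 ± 1.27 CPM in Drp1_KO mice and 6.46 ± 1.56 CPM in Drp1_WT mice. Kif2b, another kinesin-13, had 0 counts in all oocytes. Over all libraries of a label, 3 counts correspond to 0.0293 CPM in Drp1_KO and 0.0275 CPM in Drp1_WT, which bounds a level that could have been missed, for counting error only.

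Among the transport kinesins, Kif17 and Kif3a held most of the store. Kif17, a homodimeric kinesin-2 best known for carrying receptors in dendrites and for work in cilia, stood at 517, 464, 512 and 492 CPM in Drp1_KO mice. In Drp1_WT mice it had 571, 552, 524, 548 and 441 CPM. The lowest and the highest mouse were both Drp1_WT, mice 5 and 1, so the Drp1_KO range lay inside the Drp1_WT range.

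Kif3a, the motor subunit of heterotrimeric kinesin-2, had 86.5, 77.6, 85.3 and 67.2 CPM in Drp1_KO mice, against 88.6, 78.2, 82.2, 95.3 and 73.2 CPM in Drp1_WT mice. The ranges overlap, with mouse d lowest and mouse 4 highest. The subunits it works with were counted at far lower levels per kb. Against 22.7 CPM per kb of Kif3a there were 1.54 of Kif3b, 0.185 of Kif3c and 0.594 of Kifap3, the adaptor that links the motor to cargo. Of the exon bases of Kif3c, 35.3% overlap an antisense gene, which leaves its own low level uncertain.

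The conventional kinesin-1 heavy chains, which move mitochondria and vesicles, were present in 2 of 3 forms. Kif5c averaged 32.8 ± 5.33 CPM in Drp1_KO mice and 34.1 ± 4.49 CPM in Drp1_WT mice. Kif5b averaged 27.5 ± 4.71 CPM in Drp1_KO mice and 30.3 ± 3.76 CPM in Drp1_WT mice. Kif5a, the form of neurons, was counted in 5 of 18 Drp1_KO oocytes and 6 of 18 Drp1_WT oocytes, with at most 6 counts in any. Kif1b, which has a mitochondrial and a synaptic vesicle isoform, averaged 42.4 ± 5.92 CPM in Drp1_KO mice and 49.6 ± 7.05 CPM in Drp1_WT mice. Kif16b, which moves early endosomes, averaged 41.2 ± 4.12 CPM in Drp1_KO mice and 39.3 ± 6.27 CPM in Drp1_WT mice. For Kif5c, Kif5b, Kif1b and Kif16b the mice of the labels overlap.

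Other transport motors were scarce. Kif13b, a motor of the kinesin-3 family, averaged 9.98 ± 0.692 CPM in Drp1_KO mice and 10.996 ± 1.20 CPM in Drp1_WT mice. Its relative Kif13a, which acts in endosomal recycling, averaged 1.65 ± 0.816 CPM in Drp1_KO mice and 1.71 ± 0.277 CPM in Drp1_WT mice. Kif21a, a kinesin-4 that limits microtubule growth, averaged 2.22 ± 0.584 CPM in Drp1_KO mice and 1.63 ± 0.759 CPM in Drp1_WT mice. Kif1a, the carrier of synaptic vesicle precursors, stayed at 0.264 ± 0.149 CPM in Drp1_KO mice and 0.170 ± 0.0748 CPM in Drp1_WT mice.

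Among the members of cilia or other functions, Kif9 and Kif24 led. Kif9, a kinesin of the sperm flagellum, averaged 35.3 ± 0.677 CPM in Drp1_KO mice and 32.3 ± 2.76 CPM in Drp1_WT mice. Kif24, a kinesin-13 that restrains cilium formation at the mother centriole, averaged 16.1 ± 3.57 CPM in Drp1_KO mice and 17.6 ± 1.71 CPM in Drp1_WT mice. Kif27, a relative of the Hedgehog pathway kinesin Kif7, averaged 2.43 ± 0.316 CPM in Drp1_KO mice and 3.48 ± 0.510 CPM in Drp1_WT mice. Kif26b averaged 2.32 ± 0.432 CPM in Drp1_KO mice and 3.80 ± 2.08 CPM in Drp1_WT mice, of which mouse 2 alone had 7.34 CPM. The remaining members of this group averaged under 1 CPM in both labels. Kif28 averaged 0.648 ± 0.210 CPM in Drp1_KO mice and 0.680 ± 0.240 CPM in Drp1_WT mice, and was counted in 16 of 18 oocytes of each label. Kif26a averaged 0.289 ± 0.109 CPM in Drp1_KO mice and 0.351 ± 0.130 CPM in Drp1_WT mice. Kif6 averaged 0.114 ± 0.130 CPM in Drp1_KO mice and 0.0921 ± 0.0389 CPM in Drp1_WT mice. The others held few or no counts. Kif7 itself had 4 counts over all Drp1_KO oocytes and 1 over all Drp1_WT oocytes, Kif19a, which sets cilium length, had 3 and 2, and Kif12 had none in either. Of 3 markers of ciliated cells, Foxj1 was at 0 in all Drp1_KO oocytes and at most 0.156 CPM in any Drp1_WT oocyte. Tekt1 had a median of 0.838 CPM in Drp1_KO oocytes and 0.855 CPM in Drp1_WT oocytes, and Dnah5 had 12.3 CPM in Drp1_KO oocytes and 17.5 CPM in Drp1_WT oocytes. The part of such cells in these values was not tested.

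**Figure D2:**
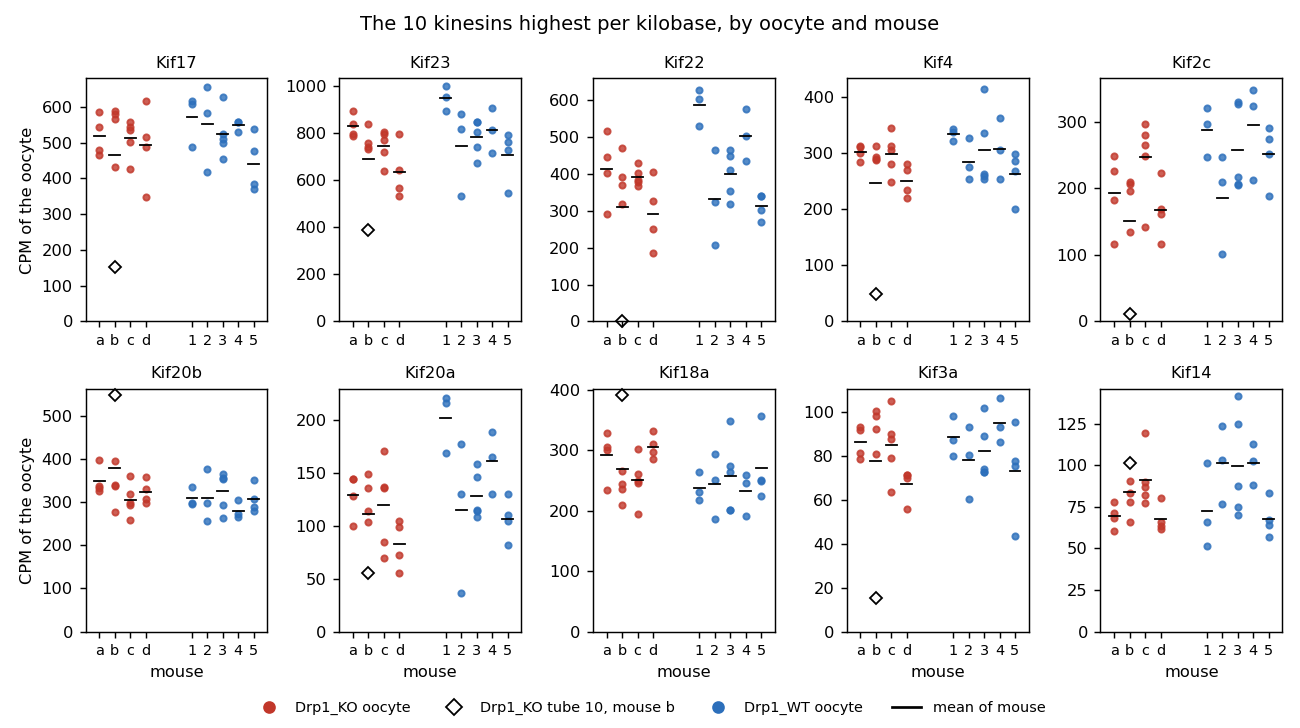
CPM of the 10 kinesins highest per kilobase in each of the 36 oocytes, by mouse (Drp1_KO mice a to d, red, then Drp1_WT mice 1 to 5, blue), with bars at the mouse means. The diamond is tube 10 of mouse b, which has 1.43 CPM of Kif22 where the other 35 oocytes lie between 185 and 627 CPM.

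Oocytes of one label differed moderately. Over the 19 members with a mean of 10 CPM or more, the coefficient of variation among oocytes ran from 14.9% to 37.0% in Drp1_KO (median 25.9%) and from 12.3% to 33.5% in Drp1_WT (median 21.5%). Without tube 10 the Drp1_KO range was 10.9% to 29.3%, with a median of 18.5%. A single library thus set the larger Drp1_KO spread. Kif22 ran from 1.43 CPM over a median of 380 to 515 CPM in Drp1_KO oocytes and from 206 over 423 to 627 CPM in Drp1_WT oocytes. Without tube 10 the lowest Drp1_KO oocyte had 185 CPM.

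Tube 10 of mouse b lay outside the range of the other 35 oocytes for 16 of the 28 members at 1 CPM or more. It lay below that range for 10 and above it for 6. Over all 11523 genes at that level, 46.7% lay below and 14.95% above, so the members' counts are near those of the whole transcriptome. The members below included abundant motors of each role. Kif22 had 1.43 CPM in tube 10 (7 counts, 95% exact binomial interval 0.575 to 2.95 CPM, which covers counting error only), against 185 to 627 CPM in the others. Kif2c had 11.2 CPM there, against 101 to 348 CPM. Kif17 had 152 CPM, against 348 to 654 CPM.

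Kif23 (389 CPM), Kif4 (49.7 CPM), Kif3a (15.3 CPM), Kif11 (7.97 CPM), Kif9 (3.47 CPM), Kif26b (0.613 CPM) and Kif21b (0 counts, where 3 counts would be 0.613 CPM) were also below all other oocytes. Other motors stood above them. Kif20b had 548 CPM in tube 10, against 256 to 398 CPM in the other 35, and Kif18a had 392 CPM, against 187 to 357 CPM. Kif2a, at 124 CPM against 32.5 to 72.3 CPM, had the largest ratio to the highest other oocyte among these, and Kif5c, Kif1b and Kif15 were above as well. Tube 10 thus carried both lower and higher kinesin shares in the library with the low oocyte marker sum and the high immune marker sum given above, whose part in these values was not tested.

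**Figure D3:**
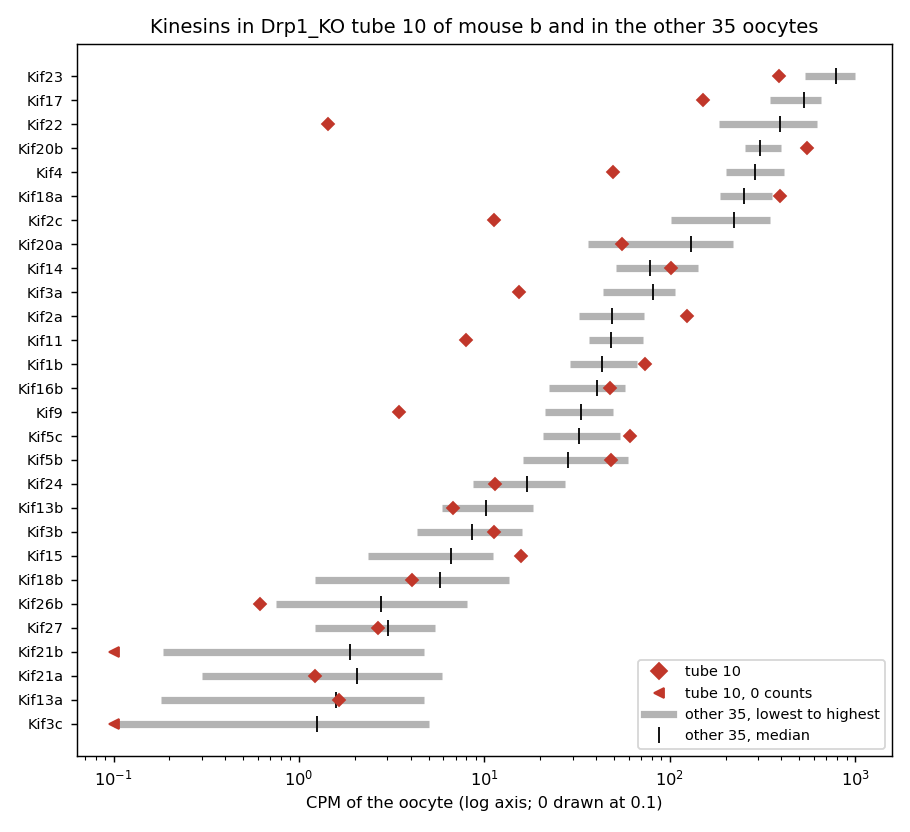
CPM in tube 10 of Drp1_KO mouse b (red) beside the range and median of the other 35 oocytes (grey bar, black tick) for the 28 kinesins at 1 CPM or more, on a log axis with 0 drawn at 0.1. Tube 10 lies below the range for 10 kinesins and above it for 6.

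Because mouse b averages tube 10 with its other oocytes, that library lowers or raises the Drp1_KO means. Without it, mouse b had 388 CPM of Kif22 in place of 310, and 61.8 CPM of Kif2a in place of 74.3. Its Kif4 was 296 CPM in place of 247, and its Kif3a 93.2 CPM in place of 77.6. Its Kif20b was 336 CPM in place of 379. The Drp1_KO means then were 371 ± 54.4 CPM for Kif22, 198 ± 33.7 CPM for Kif2c, 516 ± 20.5 CPM for Kif17 and 53.95 ± 6.61 CPM for Kif2a, against 426 ± 116, 255 ± 43.03, 527 ± 50.8 and 47.02 ± 6.48 CPM in Drp1_WT mice. The 5 Drp1_WT libraries with little Dnm1l were set beside the other 13 in the same way. For 0 of the 28 members did all 5 lie above the other 13 Drp1_WT oocytes, or all 5 below them. Among all genes 0.408% lay above in this way and 0.148% below, so a count of 0 is near the background. Overlapping ranges can still have shifted medians: Kif2c had a median of 326 CPM in the 5 libraries and 246 CPM in the other 13, and Kif18a had 202 CPM and 251 CPM.

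Drp1_KO and Drp1_WT mice were then compared over the whole table, on counts summed per mouse, to ask whether any stored kinesin transcript differed between the labels. The filter on low counts left 30 members and 12812 genes. Kif21b, a kinesin-4 motor that also pauses microtubule growth, had the largest difference and was lower in Drp1_KO mice. No member passed an adjusted p of 0.05 in edgeR's quasi-likelihood test. Kif21b alone of the 30 had an unadjusted p under 0.05. DESeq2 called 0 members as well, and limma-voom on single oocytes, with the mouse as a random effect, called 0.

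Over all genes, edgeR called 2 of 12812 (0.0156%), DESeq2 called 0.256% of 14475 and limma-voom called 0.0844% of 10658. At an unadjusted p under 0.05, edgeR's share was 9.69% of all genes, against 1 of 30 members. The median log2 fold change (Drp1_KO over Drp1_WT) was -0.0078 over the 30 members, 14 of them positive and 16 negative, and -0.0032 over all genes. By role the medians were -0.07 for 12 spindle and chromosome kinesins, 0.02 for 13 transport kinesins and -0.06 for 5 others. The fit scales libraries by TMM factors. On own-total CPM the median log2 ratio of all genes at 1 CPM or more was -0.10, which gave 21 of the 30 members a lower mean in Drp1_KO mice and a sign that differed from edgeR's for 5. Directions as small as these are therefore read relative to that shift.

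**Figure D4:**
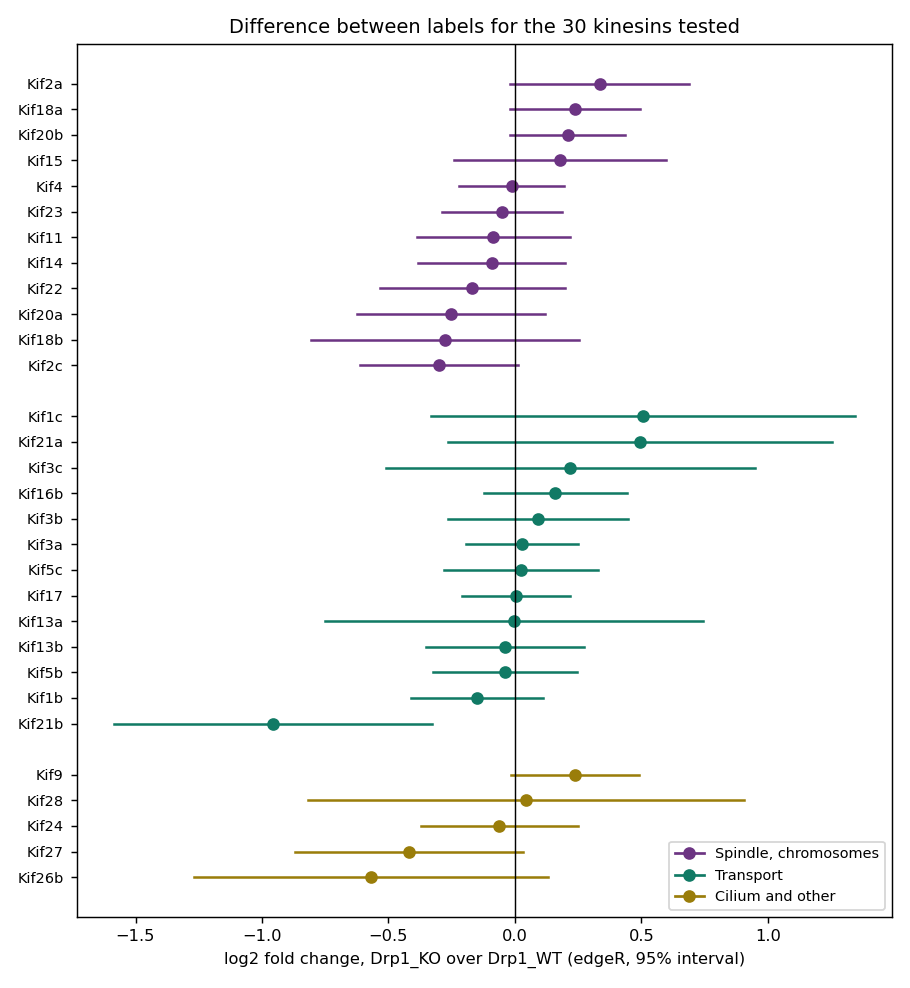
Log2 fold change of Drp1_KO over Drp1_WT for the 30 kinesins tested, with a 95% interval derived from edgeR's F statistic, by role. The interval of Kif21b (-1.59 to -0.33) is the one that leaves out 0 before adjustment, and no adjusted p is under 0.05.

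The 6 members with the smallest p were described further, on the scale of the fit (CPM with TMM factors). Kif21b had 1.53, 1.15, 1.65 and 1.38 CPM in Drp1_KO mice a to d, against 3.27, 3.75, 1.64, 1.94 and 3.32 CPM in Drp1_WT mice 1 to 5. Mice 3 and 4 were the lowest of the Drp1_WT mice, and mouse c of Drp1_KO lay just above mouse 3. The log2 fold change was -0.96 (SE 0.29, 95% interval -1.59 to -0.33), with an adjusted p of 0.471 by edgeR. On own-total CPM the labels did not overlap, with at most 1.53 CPM in Drp1_KO mice and at least 1.71 CPM in Drp1_WT mice. It was the single member of 28 at 1 CPM or more for which that held, against 2.88% of all genes.

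Kif21b was counted in 17 of 18 Drp1_KO oocytes, with at most 18 counts, and in 18 of 18 Drp1_WT oocytes, with at most 29. It is a low level at which 3 counts are worth 0.405 CPM in the deepest library and 0.944 CPM in the shallowest. Without tube 10 the log2 fold change was -0.92 (edgeR adjusted p = 0.499), and without Drp1_WT tubes 11 to 15 it was -1.05 (edgeR adjusted p = 0.746).

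Kif2c averaged 203 ± 35.4 CPM in Drp1_KO mice and 250 ± 37.8 CPM in Drp1_WT mice, a log2 fold change of -0.30 (SE 0.14, 95% interval -0.61 to 0.01, edgeR adjusted p = 0.523). Kif27 averaged 2.55 ± 0.474 CPM in Drp1_KO mice and 3.41 ± 0.428 CPM in Drp1_WT mice (log2 -0.42, SE 0.21, interval -0.87 to 0.03, edgeR adjusted p = 0.525). Of the kinesin-13 genes that encode microtubule depolymerases, Kif2a had the opposite sign to Kif2c. Kif2a averaged 57.5 ± 13.7 CPM in Drp1_KO mice and 45.6 ± 6.71 CPM in Drp1_WT mice (log2 0.33, SE 0.16, interval -0.02 to 0.69, edgeR adjusted p = 0.523). Its exons share 1229 bases, 19.2% of their length, with Dimt1 on the opposite strand, at 19.5 CPM in Drp1_KO mice and 18.3 CPM in Drp1_WT mice.

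Kif9 averaged 36.9 ± 1.76 CPM in Drp1_KO mice and 31.2 ± 3.81 CPM in Drp1_WT mice (log2 0.24, SE 0.12, interval -0.01 to 0.49, edgeR adjusted p = 0.523). Its 4 Drp1_KO mice, at 35.9, 38.1, 34.9 and 38.6 CPM, lay above 4 of the 5 Drp1_WT mice and around mouse 5, at 37.9 CPM. Kif18a averaged 288 ± 42.2 CPM in Drp1_KO mice and 244 ± 23.7 CPM in Drp1_WT mice (log2 0.24, SE 0.12, interval -0.02 to 0.49, edgeR adjusted p = 0.525). Without tube 10 and Drp1_WT tubes 11 to 15 the log2 fold changes were 0.06 for Kif18a, 0.14 for Kif2a and -0.18 for Kif2c, with edgeR adjusted p of 0.987, 0.969 and 0.958. In the same setting they were 0.23 for Kif9, -0.49 for Kif27 and -1.01 for Kif21b. The first 3 were thus smaller without these libraries, as Kif18a also was without Drp1_KO mouse d (0.14) and Kif2a without Drp1_KO mouse b (0.18). Without Drp1_KO mouse c the same 3 were larger, at 0.32 for Kif18a, 0.46 for Kif2a and -0.41 for Kif2c.

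Among the 9 members highest per kb, 4 had 95% intervals of the log2 fold change within 0.30 of 0 on both sides, at -0.21 to 0.22 for Kif17, -0.29 to 0.19 for Kif23, -0.22 to 0.20 for Kif4 and -0.19 to 0.25 for Kif3a. The intervals of the other 5 were wider or lay more to one side, at -0.53 to 0.20 for Kif22, -0.63 to 0.12 for Kif20a and -0.02 to 0.44 for Kif20b, besides those of Kif2c and Kif18a given above. Changes inside these approximate intervals were not excluded at 95%, before adjustment over genes. The intervals are not limits of detection. For rare members the intervals were wide, as for Kif13a (-0.75 to 0.74) and Kif28 (-0.82 to 0.91), which include a difference of 1.5-fold in either direction.

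**Figure D5:**
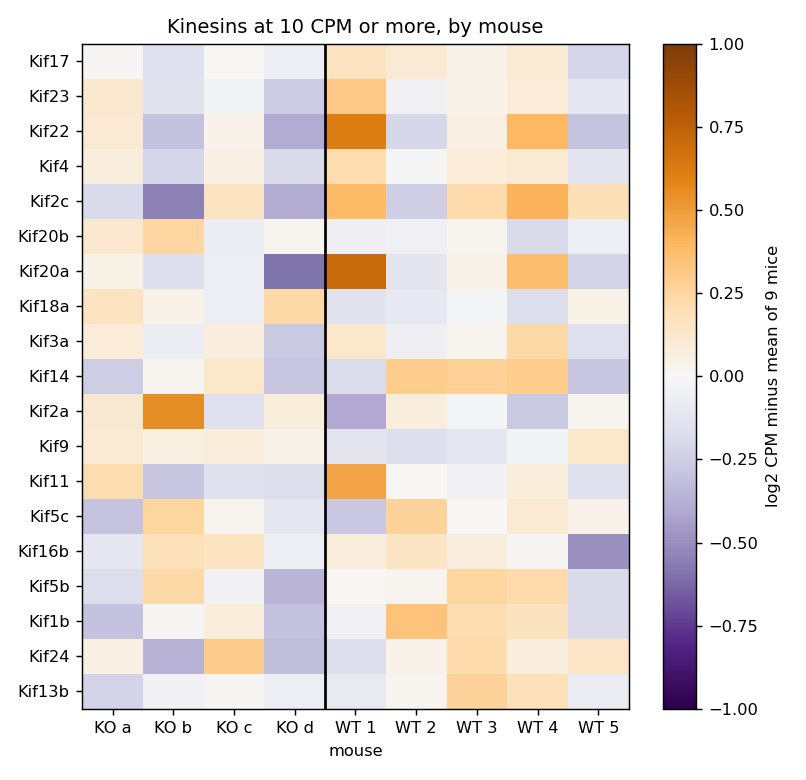
Own-total log2 CPM of the 19 kinesins at 10 CPM or more, each row as the difference from the mean of the 9 mice (Drp1_KO mice left of the line, Drp1_WT mice right of it). Mice d and 5 are below the row mean for most of the abundant kinesins, and mouse 1 is highest for Kif22 and Kif20a.

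Mice d and 5 hold tubes 27 to 30, whereas the other 7 mice hold tubes 1 to 15. Mouse d was the lowest of its label and mouse 5 the lowest of its own for 7 of the 28 members at 1 CPM or more, namely Kif23, Kif22, Kif20a, Kif3a, Kif14, Kif5b and Kif18b. The same held for 25.5% of all genes at that level, so the members' share is near the background. With the tube set as a term in edgeR's fit, 0 members passed an adjusted p of 0.05, and Kif21b, Kif18a, Kif9, Kif2c and Kif20b, 5 of 30, had an unadjusted p under 0.05. In that fit 13.9% of all genes did. The 7 mice of tubes 1 to 15 alone also gave 0 members past an adjusted p of 0.05. The labels do not say what a tube number stands for.

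The proteins that kinesins work with gave the same count of 0 past an adjusted p of 0.05, in either direction, in edgeR, DESeq2 and limma-voom. Of 6 motors of the superfamily named otherwise, 3 were tested. Cenpe, the kinetochore motor, was among the most abundant kinesins, at 65.4 CPM per kb, between Kif22 and Kif4. It averaged 605 ± 82.4 CPM in Drp1_KO mice and 533 ± 46.3 CPM in Drp1_WT mice on the scale of the fit (log2 0.18, edgeR adjusted p = 0.581). The minus-end motors Kifc1 and Kifc3 averaged 2.83 and 11.3 CPM in Drp1_KO mice, against 3.73 and 14.4 CPM in Drp1_WT mice (log2 -0.41 and -0.35, edgeR adjusted p = 0.535 and 0.508). Kifc3 was the one of the 3 with an unadjusted p under 0.05. Kifc1 is the motor that focuses spindle poles in many cells, and per kb it stood at 0.975.

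Light chains and cargo adaptors (16 of 20 in the table tested) had a median log2 fold change of -0.10, with 4 positive and 12 negative and 2 under an unadjusted p of 0.05. Rhot1, the mitochondrial anchor of kinesin-1, averaged 170 ± 22.3 CPM in Drp1_KO mice and 208 ± 33.3 CPM in Drp1_WT mice (log2 -0.29, edgeR adjusted p = 0.509). The kinesin-1 light chain Klc1 (log2 -0.28) and the adaptor Fez2 (log2 -0.37) had adjusted p of 0.538 and 0.499 by edgeR. Per kb, Rhot1 stood at 25.9 CPM, above the 4.69 of Kif5c and 3.64 of Kif5b, and Trak1, which joins them, at 1.82.

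Dynein and dynactin (31 of 32 tested), the machinery that moves towards microtubule minus ends, had a median of -0.0004, with 15 positive and 16 negative and 3 under an unadjusted p of 0.05. The light chain Dynlt3 averaged 118 ± 24.6 CPM in Drp1_KO mice and 89.1 ± 11.5 CPM in Drp1_WT mice (log2 0.41, edgeR adjusted p = 0.499). The dynactin subunits Dctn1 and Actr1b had log2 fold changes of -0.57 and -0.63, with edgeR adjusted p of 0.499 and 0.508. The dynein heavy chain Dync1h1 was counted at 0.283 CPM per kb, far under the leading kinesins. Levels within the list ran from 0.012 CPM per kb for Bicd1 to 281 for Dynlrb1. Dynlrb1, Dctn3 (169) and Dynll1 (167) exceeded the 112 of Kif17.

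Spindle assembly partners (36 of 37 tested) had a median of 0.05, with 19 positive and 17 negative and 3 under an unadjusted p of 0.05. Of these, Hmmr, which helps to target Tpx2, had a log2 fold change of 0.51, the mitotic kinase Plk1 had -0.43 and Racgap1, the partner of Kif23, had -0.34, with edgeR adjusted p of 0.499, 0.499 and 0.508. Racgap1 stood at 24.2 CPM per kb and Prc1, which recruits Kif4 to the midzone, at 115.1. Tubulins (17 of 19 tested) had a median of -0.08, with 3 positive and 14 negative and 1, Tuba4a, under an unadjusted p of 0.05 (log2 -0.26, edgeR adjusted p = 0.508). Tuba1a and Tubb3, the next by p, had log2 fold changes of -0.42 and -0.24. These lists were not tested against other genes. Over all 12812 genes tested, 6332 fold changes were positive and 6480 negative, and 9.69% of all genes had an unadjusted p under 0.05 by edgeR.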

How the data were processed

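Single germinal vesicle oocytes were lysed, amplified with a SMARTer kit, made into Nextera XT libraries and sequenced from one end, per the labels' protocols. The authors deposited raw counts per gene, whole numbers that are not normalised. Tools named in the submitters' processing notes are Subread 1.5.2, featureCounts, STAR and Picard, with the build GRCm38. The sources used here do not give the setting for strand or for reads that match several places, and no molecular identifiers are named, so intervals cover counting error only. The kits keep no strand.

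Gene IDs were matched to GENCODE M21 (21876 of 21968 matched), and all 36 count columns were used. CPM used each oocyte's own total, and a mouse was the mean of its oocytes. Levels per kilobase used the union of a gene's exons. Counts summed per mouse were tested with edgeR 4.0.16 in R 4.3.3 (TMM factors, its filter on low counts, robust quasi-likelihood fit) with Benjamini-Hochberg adjustment over all 12812 genes tested. DESeq2 1.42.0 and limma 3.58.1 (voom on oocytes, mouse as a random effect) were alternatives, with other scaling, no filter, a tube term and libraries or mice left out. The fit was also run on simulated counts drawn with a common dispersion for all genes, and no result given here rests on that run. Named were the 10 members highest per kilobase, the 6 with the smallest p, and up to 3 genes by p of each partner list (light chains and adaptors, dynein and dynactin, spindle partners, tubulins, other kinesins). Other genes given with values were chosen for their role after values were seen. The members and the lists were chosen with earlier results of these data known.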

Additional observations from a re-analysis of the deposited data

Results flagged for a closer look

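Of 56 sets of mice examined (28 members at 1 CPM or more in each label), 2 held a mouse whose gap to the nearest other mouse was large for the range of its label, by Dixon's ratio at 95%. Chance gives about 1 in 20 such sets. Kif26b, whose P-loop motif match missed the distance rule given above, was highest in Drp1_KO mouse c, at 2.96 CPM. The other 3 Drp1_KO mice lay between 2.05 and 2.19 CPM. Kif16b, the early endosome motor, was lowest in Drp1_WT mouse 5, at 28.4 CPM, while the other 4 Drp1_WT mice lay between 40.1 and 44.1 CPM.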

How the results depend on the processing

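Under each of 18 alternatives the number of kinesins past an adjusted p of 0.05 was 0, and the fold changes of Kif21b, Kif2c, Kif2a, Kif9, Kif27 and Kif18a kept their sign. Kif21b ran from -1.10 to -0.83 on the log2 scale, with adjusted p from 0.182 to 0.756, and Kif18a from 0.06 to 0.32. The number of all genes called, 2 by edgeR, was 37 by DESeq2 and 9 by limma-voom, and 4 with tubes 1 to 15 only, an alternative chosen after seeing the data. It ran from 1 to 3 when single mice were left out (1 without Drp1_KO mouse a or b or Drp1_WT mouse 2 or 3). With 10 CPM in place of 1 CPM, 18 in place of 28 members counted as stored in both labels, and the number was 20 at 1 CPM per kilobase. The setting without both tube 10 and Drp1_WT tubes 11 to 15 was also chosen after seeing the data. The cause of these differences was not tested. No paired analysis was possible because Drp1_KO mice carry letters and Drp1_WT mice numbers, so no mouse of one label is matched to a mouse of the other. Depth limits the members under about 1 CPM, where single libraries hold few counts.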
